A study of Saccharomyces cerevisiae with 8 samples.

Results

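The genes described here make acetate from acetaldehyde and turn acetate into acetyl-CoA in budding yeast: the aldehyde dehydrogenase genes ALD2, ALD3, ALD4, ALD5 and ALD6, the acetyl-CoA synthetase genes ACS1 and ACS2, and ACH1. They were chosen by their symbol in the platform annotation of the array. All 8 were found, each on 1 probe set, and all 8 were among the 5324 Saccharomyces cerevisiae genes tested. The cultures were of strain BY4742, a haploid laboratory strain recorded as MATa his3 leu2 lys2 ura3, and every group shared this genotype and synthetic complete dextrose medium. There were 4 groups of 2 arrays: untreated control, L-carnitine, 0.4 mM H2O2 (hydrogen peroxide) for 30 min, and L-carnitine followed by the same peroxide dose. The sources differ on the amount of carnitine: the design text gives 100 mg/L, while the protocol of the samples gives 1000 mg/L.

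In yeast growing on glucose, the mitochondrial pyruvate dehydrogenase and a cytosolic bypass both make acetyl-CoA. In the bypass pyruvate is decarboxylated to acetaldehyde, an aldehyde dehydrogenase oxidises it to acetate, and an acetyl-CoA synthetase joins acetate to coenzyme A at the cost of ATP. The oxidation step also yields NADH or NADPH, and NADPH feeds the thioredoxin and glutathione systems that reduce peroxides. Acetyl groups cross into mitochondria as acetylcarnitine only when carnitine is supplied, since S. cerevisiae does not make carnitine.

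The values are array signals on a linear scale as the authors deposited them. A change is the log2 difference between group means ± SE from a limma fit over all 8 arrays. "Rose" and "fell" are used of genes with a p-value below 0.05 after adjustment over all 5324 genes. The titles call the arrays of a group biological replicates, and nothing else says how separate the cultures were, so the p-values measure the spread between such arrays. A change in signal does not separate more RNA per cell from a different mix of cells. LEU2, LYS2 and URA3 read 3.87 to 4.09 on all arrays, at or below the background of 4.14 set from fission yeast probe sets, while the α-cell genes MF(ALPHA)1 and STE3 read at least 16046 and the a-cell genes MFA1 and STE2 at most 241, against the recorded MATa. HIS3 read 10505 to 17056. Because arrays had near-equal medians as deposited, a change is measured against the bulk of the genes. Scaling to poly-A spikes moved the median of all genes by -0.59 for peroxide alone, 0.70 for carnitine during peroxide and 0.63 for the interaction. Scaling to hybridisation spikes moved it by 0.16 for carnitine alone, 0.47 for peroxide alone, 0.37 for peroxide with carnitine and -0.10 for the interaction. Replicate arrays differed by up to 0.22 in mean log2 signal of either kind of spike.

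Peroxide without carnitine, set against control, shows how these genes respond to oxidative stress in cells not given carnitine. ALD2, ALD3 and ACH1 rose, ALD4, ALD5, ALD6 and ACS2 fell, and ACS1 did not pass the test. That is 7 of 8 genes, against 74.8% of all tested genes (35.3% rose and 39.5% fell), so the number alone does not set this group apart. The members' median absolute log2 change was 0.55, beside 0.51 over all tested genes.

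ALD3 (YMR169C), for a cytosolic aldehyde dehydrogenase known to be induced by stress, had signals of 285 and 94.5 in control and of 4356 and 4225 with peroxide. Its change of 4.71 ± 0.46 (adjusted p = 4.99e-05), or 26.1-fold, ranked 32nd from the highest among the 5324 genes. The control arrays differed by 3.01-fold, and the change was 5.50 without control replicate 1 and 3.91 without control replicate 2. ALD2 (YMR170C), its neighbour on the chromosome and a closely related cytosolic enzyme, read 1164 and 1167 in control and 2864 and 2645 with peroxide. It rose by 1.24 ± 0.079 (adjusted p = 6.10e-06), a 2.36-fold change. Both enzymes can also oxidise 3-aminopropanal to β-alanine, a precursor of coenzyme A. The log2 ratio of ALD3 to ALD2, taken relative to its control mean, was 3.43 and 3.50 on the peroxide arrays and 0.80 and -0.80 on the control arrays, so the 2 neighbouring genes did not move by the same amount. The sources used here do not give how far their probes share sequence.

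ALD6 (YPL061W), for the main cytosolic enzyme, which makes acetate and NADPH, read 29383 and 28871 in control and 18718 and 19628 with peroxide, with no overlap. It fell by 0.60 ± 0.043 (adjusted p = 9.88e-06), to 0.658 of the control level. ALD4 (YOR374W), for the main mitochondrial enzyme, read 17548 and 16441 in control and 15913 and 12891 with peroxide. ALD4 fell by 0.25 ± 0.095, just past the threshold (adjusted p = 0.0456). With 1 array left out at a time it was called in 1 of 8 fits, the one without peroxide replicate 1 (-0.40), and stood at -0.094 without peroxide replicate 2. ALD5 (YER073W), for a minor mitochondrial enzyme, went from 10644 and 10611 to 7153 and 7955 and fell by 0.49 ± 0.12 (adjusted p = 0.00631).

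Among the acetyl-CoA genes, ACH1 (YBL015W), for a mitochondrial enzyme that moves coenzyme A from succinyl-CoA to acetate, had the largest change. Its signals were 1250 and 1348 in control and 4490.04 and 5314 with peroxide, a rise of 1.91 ± 0.11 (adjusted p = 3.48e-06), or 3.76-fold. ACS2 (YLR153C), for the synthetase that glucose-grown cells depend on, read 21366 and 23518 in control and 17886 and 19362 with peroxide, and fell by 0.27 ± 0.079 (adjusted p = 0.0154). Its call was lost without control replicate 2 (-0.20, adjusted p = 0.102) and without peroxide replicate 1 (-0.21, adjusted p = 0.0883). ACS1 (YAL054C), for the synthetase that glucose represses, read 1425 and 1256 in control and 1544 and 1394 with peroxide. Its groups overlapped, and its change of 0.13 ± 0.10 had a 95% interval from -0.11 to 0.38. With hybridisation spike scaling ALD4 and ACS2 turned to 0.22 and 0.20, ALD5 and ALD6 stood at -0.024 and -0.13, none of these past the threshold, and ACS1 rose by 0.60, whereas under poly-A scaling ACS1 fell by 0.46.

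**Figure D1:**
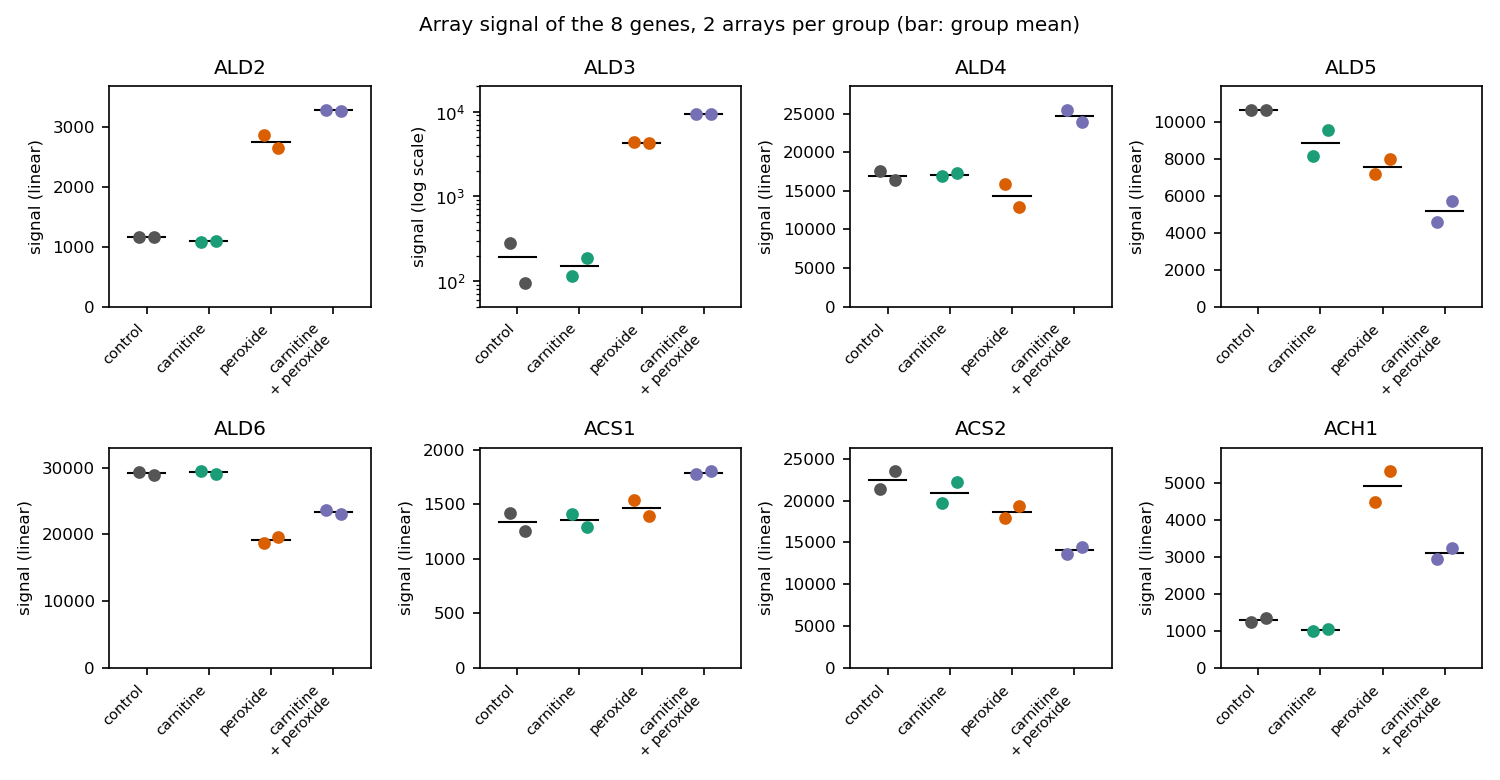
Array signal of each gene (y axis, linear, log scale for ALD3 only) in the 4 groups (x axis). Points are the 2 arrays of a group and bars the group mean. ALD3 spans 94.5 to 9450, the widest range of the 8, and in ALD4 the carnitine with peroxide arrays (25549 and 23910) lie above all other arrays.

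Peroxide in cells that had carnitine, set against carnitine alone, asks the same question on 4 other arrays. All 8 genes passed, against 74.9% of all tested genes, with 5 that rose and 3 that fell (35.8% and 39.1% of all tested genes). ALD2, ALD3 and ACH1 rose and ALD5, ALD6 and ACS2 fell, as they did without carnitine. ALD4 rose here, after a fall without carnitine, and ACS1 passed the test.

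ALD3 read 115 and 188 with carnitine and 9283 and 9450 with carnitine and peroxide. The rise of 5.99 ± 0.46 (adjusted p = 1.28e-05) was 63.5-fold and ranked 18th from the highest. ALD2 read 1083 and 1095 with carnitine and 3291 and 3273 with both agents, and rose by 1.59 ± 0.079 (adjusted p = 1.77e-06), or 3.01-fold. The log2 ratio of ALD3 to ALD2, relative to the control mean, was 4.32 and 4.36 on the arrays with both agents and -0.40 and 0.29 on the carnitine arrays.

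ALD4 read 16882 and 17346 with carnitine and 25549 and 23910 with both agents. Its rise of 0.53 ± 0.095 (adjusted p = 0.00129) was 1.44-fold, and the groups did not overlap. ALD6 read 29469 and 29091 with carnitine and 23652 and 23003 with both, a change of -0.33 ± 0.043 (adjusted p = 0.000219) that became 0.040, not past the threshold, with hybridisation spike scaling. ALD5 read 8121 and 9555 and then 4584 and 5731, and fell by 0.78 ± 0.12 (adjusted p = 0.000556).

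ACH1 read 1008 and 1054 with carnitine and 2941 and 3246 with both agents, a rise of 1.58 ± 0.11 (adjusted p = 6.67e-06), or 2.998-fold. ACS2 went from 19676 and 22221 to 13625 and 14492 and fell by 0.57 ± 0.079 (adjusted p = 0.000302), with -0.21 and adjusted p = 0.210 under hybridisation spike scaling. ACS1 went from 1415 and 1295 to 1777 and 1805 and rose by 0.40 ± 0.10 (adjusted p = 0.00848). The ACS1 call was lost without carnitine replicate 2, with 0.34 and adjusted p = 0.0545.

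**Figure D2:**
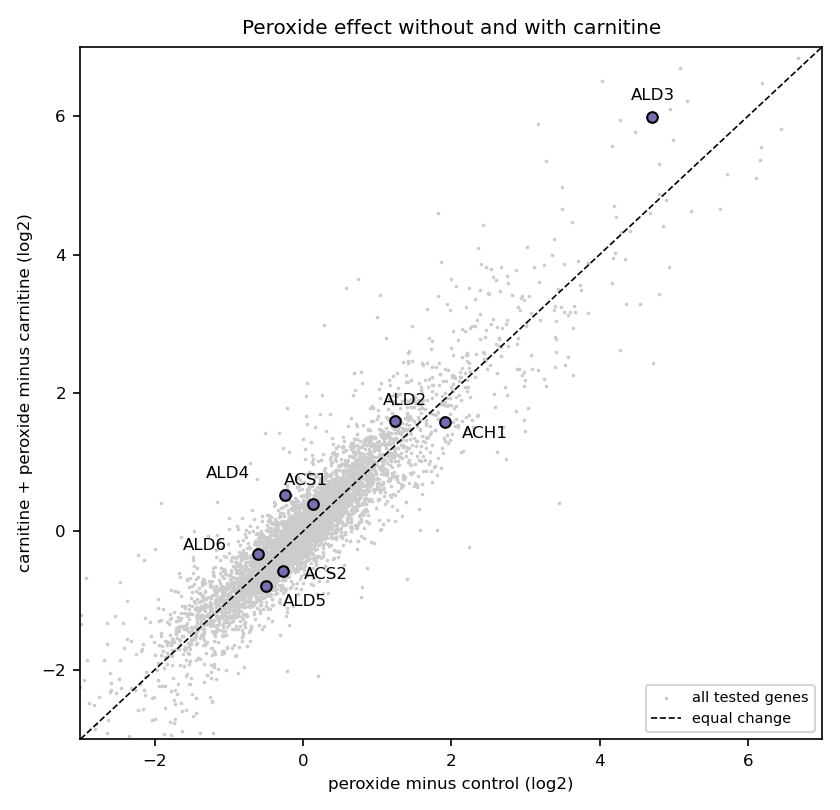
Log2 change with peroxide in cells without carnitine (x axis) and with carnitine (y axis), for all tested genes (grey) and the 8 genes (purple). The comparisons use different arrays, 76 genes lie outside the axes, and ALD4 sits furthest above the line of equal change after ALD3, at -0.25 and 0.53, of the 8.

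Carnitine in unstressed cells, set against control, asks whether the supplement alone moves acetyl-CoA genes. No call was made for any of the 8 genes in limma, against 1.5% of all tested genes (0.47% rose and 1.03% fell), while 1 of the 8 had an unadjusted p below 0.05. That gene was ACH1, with arrays of 1250 and 1348 in control and 1008 and 1054 with carnitine. Its change was -0.33 ± 0.11 (adjusted p = 0.212), with a 95% interval from -0.58 to -0.08. ALD5 had -0.27 ± 0.12, with carnitine arrays of 8121 and 9555 below the control arrays of 10644 and 10611. ALD2 had -0.10 ± 0.079 and ACS2 -0.10 ± 0.079, ACS2 with overlapping arrays.

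ALD4, ALD6 and ACS1 had changes of 0.011 ± 0.095, 0.0076 ± 0.043 and 0.017 ± 0.10. The interval for ALD6 ran from -0.092 to 0.11, that for ALD4 from -0.21 to 0.23 and that for ACS1 from -0.23 to 0.26. For ALD3 the change was -0.15 ± 0.46 and the interval, -1.23 to 0.92, leaves a large change of either sign undetected. The median change of the 8 genes was -0.099, beside -0.0011 over all tested genes.

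Carnitine during peroxide, set against peroxide alone, asks whether the supplement alters gene expression in stressed cells. It shares its peroxide arrays with the first comparison. ALD2, ALD4 and ALD6 rose and ALD5, ACS2 and ACH1 fell, which is 6 of 8 genes, against 35.5% of all tested genes (18.8% rose and 16.7% fell). ALD3 and ACS1 were higher on both arrays with carnitine but did not pass. The median absolute log2 change of the 8 genes was 0.48, beside 0.20 over all tested genes.

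ALD4 had the largest called change. Its arrays read 15913 and 12891 with peroxide and 25549 and 23910 with carnitine and peroxide. The rise of 0.79 ± 0.095 (adjusted p = 0.00289) was 1.73-fold and ranked 162nd from the highest of 5324. The call held without each of the 8 arrays in turn. ALD6 went from 18718 and 19628 to 23652 and 23003, between the peroxide and the control levels, and rose by 0.28 ± 0.043 (adjusted p = 0.00379). ALD2 went from 2864 and 2645 to 3291 and 3273 and rose by 0.25 ± 0.079 (adjusted p = 0.0415), a call that 1 of the 8 fits with an array left out kept, the one without peroxide replicate 1, over values from 0.20 to 0.31. The replicate block also ended the ALD2 call (adjusted p = 0.0507).

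ALD3 read 4356 and 4225 with peroxide and 9283 and 9450 with both agents, so each pair of arrays was close and the groups were far apart. Its change was 1.13 ± 0.46 (adjusted p = 0.0930), or 2.18-fold, and ranked 79th from the highest. The spread behind this SE is pooled over the 4 groups and includes the 2 control arrays, which differed by 3.01-fold. With 1 array left out at a time, ALD3 was called in 2 of 8 fits, those without a control array, and not in the other 6. The values ran from 1.10 to 1.15. In a fit of only the 4 peroxide arrays the adjusted p was 0.0140. ACS1 went from 1544 and 1394 to 1777 and 1805, a change of 0.29 ± 0.10 (adjusted p = 0.0657), with an interval from 0.04 to 0.53, and passed with the replicate block (adjusted p = 0.0498).

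ACH1 went from 4490.04 and 5314 with peroxide to 2941 and 3246 with both agents. It fell by 0.66 ± 0.11 (adjusted p = 0.00467), to 0.633 of the peroxide level, and ranked 241st from the lowest. It remained above the control arrays of 1250 and 1348. ALD5 went from 7153 and 7955 to 4584 and 5731 and fell by 0.56 ± 0.12 (adjusted p = 0.0116). ACS2 went from 17886 and 19362 to 13625 and 14492 and fell by 0.41 ± 0.079 (adjusted p = 0.00833).

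The calls of ALD5 and ACS2 were lost without peroxide replicate 2 (-0.48 and -0.35) and without carnitine with peroxide replicate 1 (-0.40 and -0.36). With poly-A spike scaling, which moves all genes up by 0.70, ALD5, ACS2 and ACH1 turned to 0.14, 0.29 and 0.036, of which ACS2 passed the threshold. Hybridisation spike scaling ended the calls of ALD2 (adjusted p = 0.171), ALD6 (adjusted p = 0.0805) and ACS2 (adjusted p = 0.0871), while ALD3 passed under it (adjusted p = 0.00400), which left 2 genes that rose and 2 that fell. Such a scaling shifts every gene alike, so the distance of these genes from the median of all genes stays the same.

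**Figure D3:**
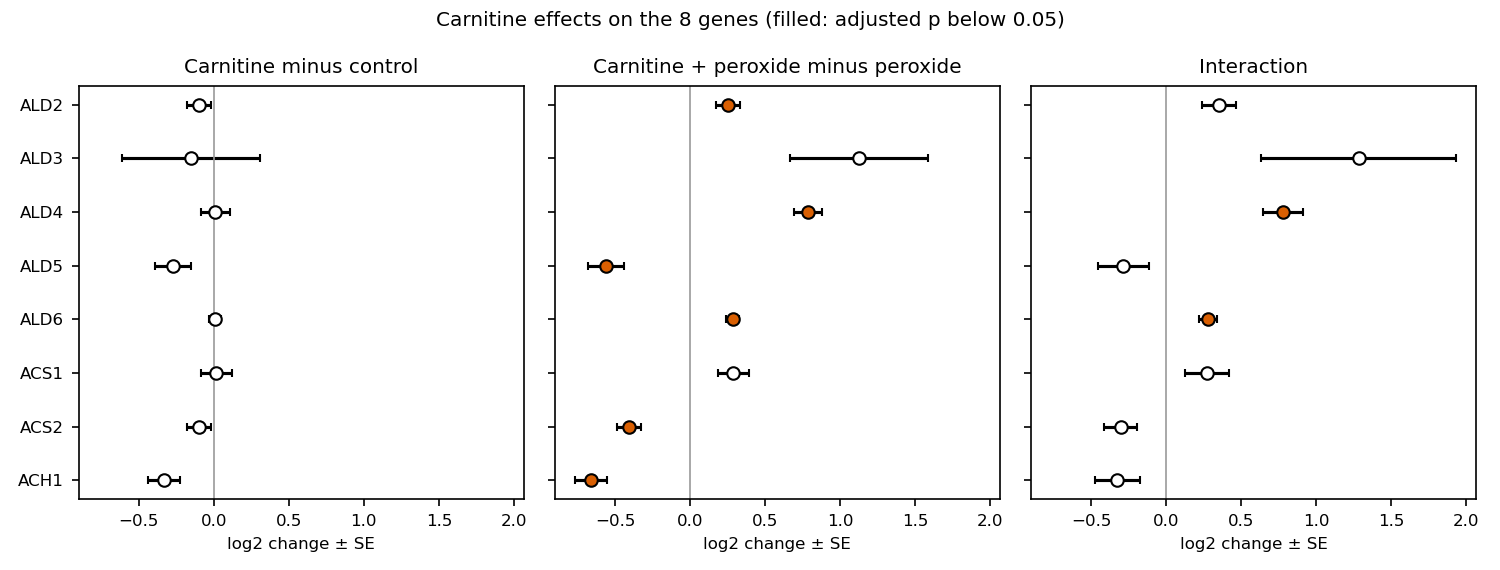
Log2 change ± SE from the fit over 8 arrays (x axis) for each gene (y axis) with carnitine alone, with carnitine during peroxide, and for the interaction; filled points have an adjusted p below 0.05. Filled points number 0, 6 and 2 in the 3 panels, and ALD3 has the widest bars.

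The interaction tests whether the peroxide effect differs between cells with and without carnitine. It was called for ALD4 and ALD6, 2 of 8 genes, against 12.8% of all tested genes (7.72% rose and 5.11% fell). Both had positive values. For ALD4 the peroxide effect was -0.25 without and 0.53 with carnitine, and the difference was 0.78 ± 0.13 (adjusted p = 0.0221). For ALD6 the effects were -0.60 and -0.33, and the difference was 0.28 ± 0.060 (adjusted p = 0.0318).

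Leaving out 1 array at a time ended the ALD4 call in 5 of 8 cases, with values from 0.62 to 0.93 and adjusted p up to 0.0848. The arrays were both control arrays, both carnitine arrays and replicate 1 of carnitine with peroxide. The ALD6 call ended in 7 of 8 cases, all but the one without peroxide replicate 1, with values from 0.24 to 0.31 and adjusted p up to 0.109. It also ended with no variance trend and under hybridisation spike scaling.

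ALD2, ALD3 and ACS1 had differences of 0.35 ± 0.11 (adjusted p = 0.0776), 1.28 ± 0.65 (adjusted p = 0.218) and 0.27 ± 0.15 (adjusted p = 0.248). ALD5, ACS2 and ACH1 had -0.29 ± 0.17, -0.30 ± 0.11 and -0.33 ± 0.15, with adjusted p of 0.283, 0.109 and 0.180. These 6 were not shown to respond differently to peroxide with carnitine. The ALD3 difference was 0.49 without control replicate 1 and 2.08 (adjusted p = 0.0428) without control replicate 2. The replicate block added a call for ACS2 (adjusted p = 0.0246).

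Set side by side against the shared control, the 8 genes took several courses. With both agents ALD3 stood at 5.84, ALD2 at 1.49 and ACH1 at 1.25, and these 3 were the furthest up. ALD4 and ACS1 stood at 0.54 and 0.42, and their courses over the carnitine, peroxide and combined groups were the closest of any pair, at a root mean square difference of 0.23. Even so, with peroxide alone ALD4 stood at -0.25 and ACS1 at 0.13. Whether the distances of the closest pairs differ was not tested. ALD6, ACS2 and ALD5 stood at -0.32, -0.67 and -1.05. ALD5 and ACS2 were the next closest pair, at 0.27, while ALD2 and ALD3 differed by 3.21. The mitochondrial enzyme genes ALD4 and ALD5 differed by 0.94.

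The 3 genes of the whole array closest to each member by that measure were as follows, over 3 changes from control in 4 groups. For every member but ALD3 the nearest distance was below the SE of a single change of that member, such as 0.011 beside 0.079 for ACS2. Which gene is nearest is therefore not resolved. ALD2 lay closest to SDH5, which encodes an assembly factor of succinate dehydrogenase, at 0.037, and then to YBR053C and AIM19. ALD3 had no close match. Its nearest genes were RTN2, for a reticulon of the endoplasmic reticulum, at 0.48, and YTP1 and ECM4, both at 0.49. ALD4 lay closest to CAT8, for an activator of gluconeogenic genes, at 0.052, and then to PUT3 and MRP1. The group means of CAT8 ran from 26.6 to 46.0.

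ALD5 lay closest to SDO1, for a ribosome maturation factor, at 0.035, followed by URA4 and STP4. ALD6 lay closest to ARO9, for an aromatic aminotransferase, at 0.021, followed by UBP5 and SYF1. ACS1 was nearest to SHH3, of the succinate dehydrogenase family, at 0.015, and then to PHO85 and MTC5. ACS2 was nearest to THR1, for homoserine kinase, at 0.011, and then to LYS12, of lysine synthesis, at 0.033, and RPL39. ACH1 was nearest to VHS3 at 0.075, with VRP1 and TPK2, the latter for a catalytic subunit of protein kinase A, at 0.094 and 0.12.

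The wider pathway was described with 10 lists of 85 genes, of which 84 were tested. The exception was JEN1, for a lactate and pyruvate carrier, which lay at the background. The counts with peroxide alone are to be read against the 35.3% of all tested genes that rose and the 39.5% that fell. With peroxide alone the steps before the aldehyde dehydrogenases split: of 3 pyruvate decarboxylase genes PDC6 rose by 2.90 ± 0.29, PDC5 fell by 0.82 ± 0.16 and PDC1, for the main enzyme, did not pass. Of the 4 other aldehyde dehydrogenase genes 3 rose and 1 fell (median 0.83, beside -0.02 over all tested genes), UGA2, for succinate semialdehyde dehydrogenase, by 2.44 ± 0.075. Of 8 alcohol dehydrogenase genes 4 rose and 1 fell, SFA1, which also clears formaldehyde, by 1.98 ± 0.082. The list of pyruvate dehydrogenase, the other source of acetyl-CoA, and its control gave 5 of 9 that rose and 0 that fell (median 0.40). Those that rose were PKP1 and PKP2, for kinases of the complex, PTC5 and PTC6, for its phosphatases, and PDX1. PKP2 rose by 1.10 ± 0.094. The enzyme subunit genes PDA1, PDB1, LAT1 and LPD1 did not pass, at -0.092, -0.12, 0.11 and -0.024.

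NADPH suppliers other than ALD6 gave 6 of 10 that rose and 3 that fell (median 0.87). GND2 rose by 4.71 ± 0.22, from a low control signal of 11.8, and ZWF1, for the entry enzyme of the pentose phosphate pathway, by 1.60 ± 0.094. MAE1, IDP1 and GND1 fell, by 2.32, 0.52 and 0.19, as did ALD6. Of 13 acetyl-CoA users 6 rose and 4 fell (median 0.04), and CIT1, for mitochondrial citrate synthase, rose by 1.59 ± 0.043. In the list of β-alanine and coenzyme A synthesis, to which ALD2 and ALD3 contribute, 6 of 14 rose and 4 fell (median 0.05). FMS1, for the polyamine oxidase that makes 3-aminopropanal, rose by 2.09 ± 0.082. Transport gave 2 of 6 that rose and 2 that fell (median -0.027), and MPC3, for a subunit of the mitochondrial pyruvate carrier, fell by 2.47 ± 0.22. The acetyl carnitine shuttle gave 3 of 6 that rose and 1 that fell (median 0.97). CAT2 rose by 2.21 ± 0.14 and YAT2, for a cytosolic carnitine acetyltransferase, by 1.78 ± 0.12, while HNM1 fell by 2.19 ± 0.13. YAT1 and CRC1 did not pass and read 5.06 and 4.47 with peroxide, near the background of 4.14. Of 11 regulators 5 rose and 4 fell (median 0.061), and MIG1, for a glucose repressor, fell by 1.72 ± 0.12. In the other direction, YAP1 read 4402 ± 333 in control and 17610 ± 2075 with peroxide (SD, n = 2). ADR1 read 127 ± 50.2 and 871 ± 181.

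With carnitine during peroxide, 18.8% of all tested genes rose and 16.7% fell, beside which the counts of the lists stand. Acetate and pyruvate transport gave 3 of 6 that rose and 1 that fell (median 0.52, beside 0.01 over all tested genes). Among those that rose, ADY2 lay near the background of 4.14, at 4.70 with peroxide and 8.72 with both agents. MPC3 rose by 1.49 ± 0.22, from 2805 ± 1061 to 7592 ± 855 (SD, n = 2), and ATO2, of the acetate transporter family, rose by 1.39 ± 0.17. ATO3 was the 1 that fell, by 0.68 ± 0.097, from 9089 ± 316 to 5713 ± 872. In the pyruvate dehydrogenase list 1 of 9 rose and 1 fell, and PKP2 fell by 0.89 ± 0.094. Of 10 NADPH suppliers 2 rose and 3 fell. GND2, for the minor 6-phosphogluconate dehydrogenase, rose by 3.25 ± 0.22, from 304 ± 25.7 to 2929 ± 626 (SD, n = 2), and YEF1 by 0.58 ± 0.15. MAE1 fell by 1.42 ± 0.21, IDP1 by 0.30 ± 0.051 and POS5 by 0.30 ± 0.088. Of 14 genes of β-alanine and coenzyme A synthesis 2 rose and 5 fell, and FMS1 fell by 0.55 ± 0.082. The other aldehyde dehydrogenases gave 1 of 4 that rose and 1 that fell, the pyruvate decarboxylases 0 and 1 of 3, the alcohol dehydrogenases 0 and 1 of 8, and the acetyl-CoA users 2 and 4 of 13.

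The acetyl carnitine shuttle list gave 1 of 6 that rose and 1 that fell. YAT2 fell by 0.91 ± 0.12. CRC1, for the mitochondrial carnitine carrier, stood at 11.4 ± 0.24 with both agents and at 4.47 ± 0.36 with peroxide, close to the background. It lay below the background in control and with carnitine alone, and passed the background filter only through its arrays with both agents. Its call in this list is therefore not separate from that filter. With both agents it was at least 2.75-fold above its level with carnitine alone. Among 11 regulators 3 rose and 1 fell: CAT8 by 0.80 ± 0.26, MSN4, for a stress activator, by 0.56 ± 0.13 and MIG1 by 0.92 ± 0.12, while SNF1, for the kinase that inhibits Mig1, fell by 0.34 ± 0.069. In the interaction, where 7.72% of all tested genes were called with a positive and 5.11% with a negative value, 2 of the 4 other aldehyde dehydrogenase genes were called, both positive: PUT2, for a mitochondrial enzyme of proline breakdown, at 0.61 ± 0.13 and HFD1, for a fatty aldehyde dehydrogenase, at 0.46 ± 0.10. Of 6 transport genes 3 were positive and 1 negative, with ATO2 at 2.37 ± 0.24 and MPC3 at 1.74 ± 0.31. The other positive gene was ADY2, with signals near the background, and the negative gene was ATO3, at -0.66 ± 0.14. None of the pyruvate decarboxylase, alcohol dehydrogenase and pyruvate dehydrogenase genes was called in the interaction by limma, and of these 20 genes 3 had an unadjusted p below 0.05. MIG1 was the 1 regulator called, at 0.87 ± 0.17. The NADPH suppliers gave 1 positive and 1 negative of 10, GND2 at 3.21 ± 0.32 and MAE1 at -1.28 ± 0.29. The shuttle gave 1 and 1 of 6, CRC1 near the background and YAT2 at -0.83 ± 0.17. The acetyl-CoA users gave 0 and 2 of 13, and β-alanine and coenzyme A synthesis 1 and 2 of 14.

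With carnitine alone, 3 of the 84 tested genes of these lists passed, against 1.5% of all tested genes (0.47% rose and 1.03% fell): ATO2 fell by 0.98 ± 0.17, PKP2 fell by 0.71 ± 0.094 and CIT1 fell by 0.37 ± 0.043.

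**Figure D4:**
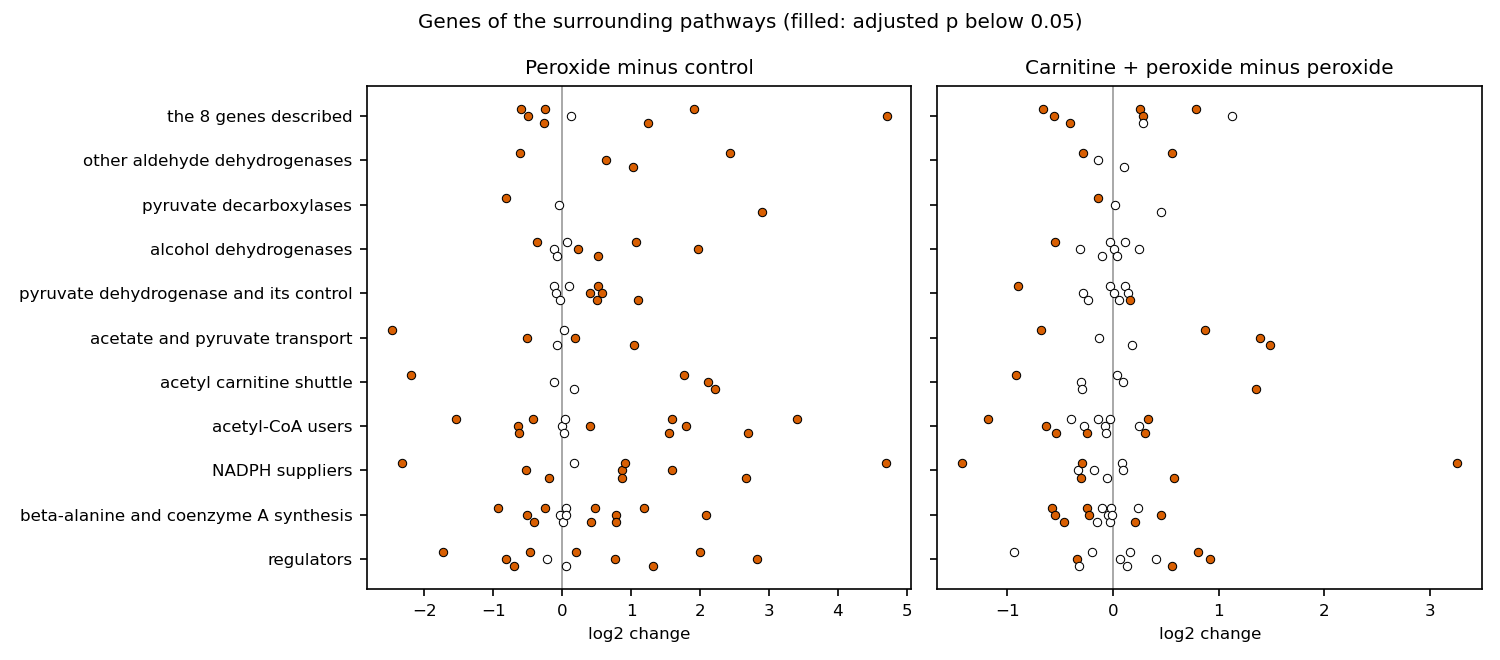
Log2 change (x axis) of the 8 genes and of the genes of the 10 pathway lists (y axis) with peroxide alone and with carnitine during peroxide; each point is a gene, filled where its adjusted p was below 0.05. The scales of the panels differ, and the point furthest right under carnitine during peroxide is GND2, at 3.25.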

How the data were processed

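Total RNA from 8 yeast cultures was biotin-labelled and hybridised to Affymetrix yeast arrays. The deposited values are linear intensity per probe set; the submitters' processing notes name GCOS without a version, and how probes were summarised, corrected and scaled is not stated in those sources. The platform annotation gives 1 S. cerevisiae gene for 5498 of 10928 probe sets (5449 genes, each read from its brightest probe set), a fission yeast gene for 1746, several genes for 1 and none for 3683. Fission yeast probe sets set the background, at the 95th percentile of their mean log2 signals (2.05, or 4.14 linear); 125 genes below it were left out. The 5324 tested genes had array medians of 3044 to 3198, so signals were used as deposited; 2 arrays per group limit precision.

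The model was limma's (version 3.58.1, R 4.3.3) on log2 signals (a mean per group, eBayes with a trend, 4 residual and 3.44 prior degrees of freedom) in 5 comparisons. P-values were adjusted per comparison by Benjamini-Hochberg, with a threshold of 0.05. The fit was tested on simulated data. Figures used matplotlib 3.10.9 in Python 3.11.15. Symbols follow RefSeq, and its gene order along the chromosomes gave the neighbour of ALD2. No sequence was used, so promoter motifs were not analysed here. The members, gene lists, alternatives and the naming rule (all members; up to 3 called genes per list and comparison by moderated t, or the top 1; the 3 nearest genes to each called member) were chosen with earlier results of these data known. CRC1 bounds are against the background. Alternatives were quantile normalization, median centring, poly-A (12 probe sets) and hybridisation (9) spike scaling, a replicate block, only the arrays compared, an offset of 50, no variance trend, the mean of a gene's probe sets, no filter, keeping genes above the 40th percentile (11.06 on the log2 scale), and omission of each array.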

Additional observations from a re-analysis of the deposited data

Results flagged for a closer look

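The interaction test in limma, of the peroxide effect with against without carnitine, called 2 of the 8 genes, against 12.8% of all tested genes. For ALD4 the interaction was 0.78 ± 0.13 (adjusted p = 0.0221): the peroxide effect was -0.25 without carnitine and 0.53 with it, and both arrays with carnitine and peroxide lay above all other arrays. For ALD6 the interaction was 0.28 ± 0.060 (adjusted p = 0.0318), with peroxide effects of -0.60 and -0.33. Over the alternatives the adjusted p ran from 2.96e-05 to 0.0848 for ALD4 and from 0.000269 to 0.694 for ALD6. Leaving out 1 array at a time ended the ALD4 call in 5 of 8 fits and the ALD6 call in 7 of 8. Groups of 2 arrays are too small to be tested for a deviating array.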

How the results depend on the processing

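Of the 40 member changes (8 genes in 5 comparisons) 23 were called. Over the 426 alternatives of these 23, 373 gave the same call, and 9 of the 23 kept it under every alternative run. Quantile normalization, median centring, an offset of 50 and all probe sets moved no count of called members or genes by over 1.5 times. Leaving out 1 array gave 17 to 54 called genes for carnitine alone (80 with all arrays), 786 to 1763 for carnitine during peroxide and 17 to 969 for the interaction; members called were 3 to 6 for carnitine during peroxide and 0 to 2 for the interaction. Members near 0 with carnitine alone changed sign among these: ALD3 (-0.95 to 0.64), ALD4 (-0.036 to 0.058), ALD6 (-0.0051 to 0.020) and ACS1 (-0.074 to 0.11).

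Poly-A scaling called 6 members for carnitine during peroxide, all 6 rising, and 4714 genes (4633 rose, 81 fell), and for the interaction 5 members and 3935 genes (3895 rose, 40 fell); for peroxide alone 754 genes rose and 3548 fell. It reversed ACS1 with peroxide alone (-0.46), ALD5, ACS2 and ACH1 for carnitine during peroxide (0.14, 0.29 and 0.036) and for the interaction (0.34, 0.32 and 0.30). Hybridisation spike scaling called 4 members with peroxide alone (2966 genes rose, 823 fell), and 2555 rose and 1001 fell for peroxide with carnitine. It called 4 members and 1088 genes (704 and 384) for carnitine during peroxide, and 1 member and 354 genes (155 and 199) for the interaction. With carnitine alone 52 genes rose and 38 fell under it (25 and 55 as deposited), and ALD2, ALD3 and ACS2 read 0.058, 0.00092 and 0.055; with peroxide alone ALD4 and ACS2 read 0.22 and 0.20, and with carnitine ALD6 read 0.040. The cause was not tested. No filter gave 41 genes for carnitine alone and 449 for the interaction. The filter at the 40th percentile kept 4 members, all 4 called under peroxide alone and under peroxide with carnitine (2585 and 2640.0 genes). No variance trend left 1 member in the interaction, and fitting only the arrays compared gave 15 genes for carnitine alone.

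Arrays with the same replicate number in the titles showed no strong shared shift: over 6 pairs of groups their deviations correlated at -0.11 to 0.13. Such correlations do not settle whether same-numbered cultures were paired. The replicate block gave 0, 7, 8, 6 and 3 called members in the order carnitine alone, peroxide alone, peroxide with carnitine, carnitine during peroxide and interaction, and 106, 4004, 4009, 1972 and 863 genes.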
